A study of Mus musculus with 24 samples.

Results

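The genes described here are 46 regulators of mitosis and parts of the mitotic spindle, taken as a list of gene symbols: cyclins and the kinase they drive, spindle pole kinases, the chromosomal passenger complex, the spindle checkpoint, the anaphase machinery, kinetochore proteins, spindle motors, midzone and cytokinesis proteins, and chromosome condensation factors. Of the 46 genes, 45 had a probe set to which the array's annotation gives 1 symbol, and where a gene had several, the one with the highest mean stood for it. Ccnb1, which encodes cyclin B1, had none in the annotation used here. Of the 45, 40 were above the median of all deposited values (2.56 on the log2 scale) on at least 4 of the 24 arrays and entered the tests, together with the rest of the 13311 genes tested among 19938. The 5 left out were too dim: Ccnf, Bub1, Kif2c, Kif18a and Nuf2 exceeded that median on 2, 3, 3, 1 and 2 arrays.

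The arrays measured blastocysts of NMRI mice, an outbred stock, at day 3.5 post coitum. Parents received a high-fat diet (modified D12492, cohort of 7 animals) or its control diet (cohort of 14 animals) for 9 weeks, starting at 3 weeks of age. Mating took place at 12 weeks, and all animals ate the control diet during mating. Embryos came from an obese father and a lean mother, an obese mother and a lean father, or lean parents, and each kind of parentage was split into male and female embryos, which gives 6 groups of 4 arrays. One array held the pooled lysate of 3 same-sex embryos of 1 mother. Which mother or father stood behind which pool is not given in the labels, so the p-values below measure the spread between pools, which may share parents. Arrays are named by the number in their labels: lean-parent males 1 to 4, obese-mother males 5 to 8, obese-father males 9 to 12, lean-parent females 13 to 16, obese-mother females 17 to 20 and obese-father females 21 to 24. Values are listed in that order throughout. Of 9 trophectoderm markers 8, and of 7 inner cell mass markers 5, were above the median of all values on every array. So were 3 of 5 primitive endoderm and 3 of 4 sperm markers, so passing this median does not tell cell types apart.

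Entry into mitosis is driven by Cdk1 bound to cyclins A and B, and exit requires their destruction by the anaphase-promoting complex with its activator Cdc20. Between these steps the Aurora and Polo-like kinases build the spindle, the kinetochore couples chromosomes to microtubules, and the spindle checkpoint holds Cdc20 back until every chromosome is attached. Many of these genes are transcribed in G2 phase from promoters that combine CCAAT boxes with a cell cycle homology region, and their transcripts are scarce in resting cells. Both lineages of the blastocyst, the trophectoderm and the inner cell mass, hold dividing cells. In pooled whole embryos, fewer dividing cells and less mitotic RNA per cell cannot be told apart.

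The level of the 40 genes differed more between arrays than between groups. Averaged over the 40 genes, the log2 level ran from 2.93 on array 4, a lean-parent male pool, to 4.78 on array 22, an obese-father female pool, with 3.95 on array 12 as the next highest. The group means were 3.26 ± 0.34 (SD, n = 4 arrays here and below) in lean-parent males, 3.65 ± 0.23 in obese-father males, 3.29 ± 0.25 in obese-mother males, 3.39 ± 0.17 in lean-parent females, 3.59 ± 0.79 in obese-father females and 3.31 ± 0.26 in obese-mother females. All 6 groups overlapped in this mean. The obese-father females were the most scattered, with 3 pools at 3.20, 3.19 and 3.20 and array 22 far above them.

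This mean followed the signal spread of the array, which is the SD of all its log2 values. The spread was lowest on array 4 (1.27) and highest on arrays 22 (1.81) and 12 (1.72). Within groups, the limma slope on the spread was positive for 39 of the 40 genes. It passed the test (adjusted p under 0.05 over all tested genes) in the positive direction for 33 of 40 and in the negative direction for 1, whereas among all tested genes the positive call was made for 19.2% and the negative for 45%. The median slope was 0.29 per 0.1 of spread, against -0.07 over all tested genes. Without array 22, an alternative added once the values were known, 22 of the 40 were called positive and 1 negative, against 12% positive among all tested genes. Since the levels themselves enter the spread, the slope describes how these genes follow it and is no independent test.

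**Figure D1:**
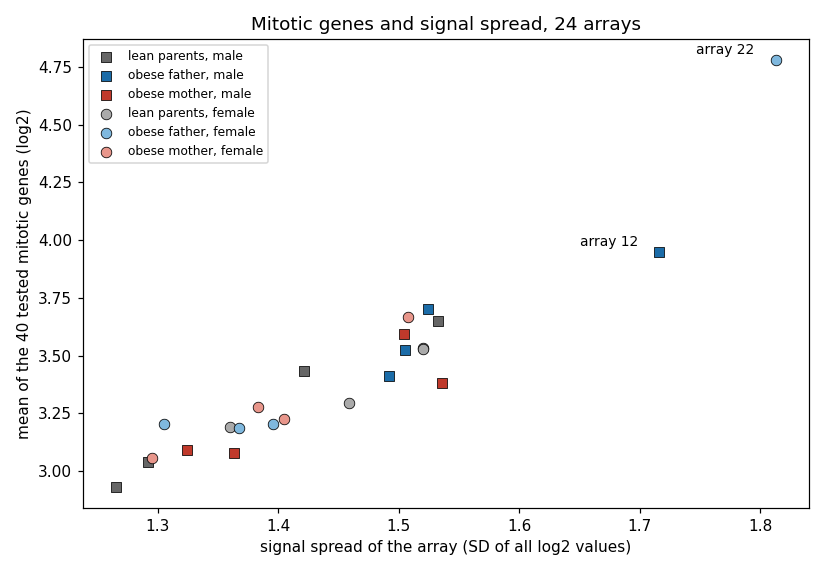
Mean log2 level of the 40 tested mitotic genes (vertical axis) against the signal spread of the array (SD of all its log2 values, horizontal axis), 1 point per array, squares for male and circles for female pools. The points climb together from array 4 (1.27, 2.93) to array 22 (1.81, 4.78), and arrays 12 and 22 stand apart at the wide end.

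The steepest slope belonged to Cks2, the small subunit that helps Cdk1 bind its substrates, at 0.91 per 0.1 of spread (SE 0.07, adjusted p = 3.76e-09). It was followed by Smc4, a condensin core subunit (0.67), Pttg1, the securin that restrains separase (0.62), Top2a, the topoisomerase that untangles sister chromatids (0.57), and the checkpoint protein Mad2l1 (0.55). At the other end were Aurkb (0.06), Nusap1 (0.04), Cdc20 (0.02) and Cdc25c (0.01), none of which passed the test, and Espl1, which encodes separase and had the negative slope (fell by 0.12 per 0.1 of spread, adjusted p = 0.0114).

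Array 22 carried the highest value of all 24 arrays for 27 of the 40 genes (67.5%), against 17.8% of all tested genes. After quantile normalization, which gives every array the same spread, it did so for 20 of the 40 (50%), against 13.4% of all tested genes. On this array 37 of the 40 genes were above the mean of the other 3 obese-father female pools. The differences were 3.53 for Cks2, 3.32 for Top2a, 2.93 for Spc25 and 2.80 for Kif11, and those below 0 were Nusap1 (-0.06), Ube2c (-0.10) and Espl1 (-0.41). On array 22 the trophectoderm markers averaged 5.30 and the inner cell mass markers 5.12, each the highest value of its list in any group, while the cumulus and granulosa markers averaged 2.73. Primitive endoderm markers averaged 3.41 there, below the highest lean-parent male array at 3.51. The part of cell make-up in the level of array 22 was not tested.

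The genes moved together across arrays. Over all 780 pairs, the Pearson correlation of the deviations from the group means had a median of 0.53 (24 arrays), against 0.09 for all pairs of tested genes. With the signal spread removed as well, the medians were 0.10 and 0.01. Without array 22 they were 0.24 and 0.06 before the spread was removed, and 0.05 and 0.01 after. All these pairs share the same arrays and the same array 22, so the values describe these 24 arrays. After both removals the closest pairs were Cdca8 of the passenger complex with the condensin subunit Ncapg (r = 0.85), the motor Cenpe with the contractile ring scaffold Anln (0.75), Ccnb2 with Cenpf (0.75) and the kinase Plk1 with the midzone motor Kif23 (0.74). Aurka and Racgap1 stood at the other end, with r of -0.63 for Aurka with Ncapg and -0.66 for Racgap1 with Ect2.

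**Figure D2:**
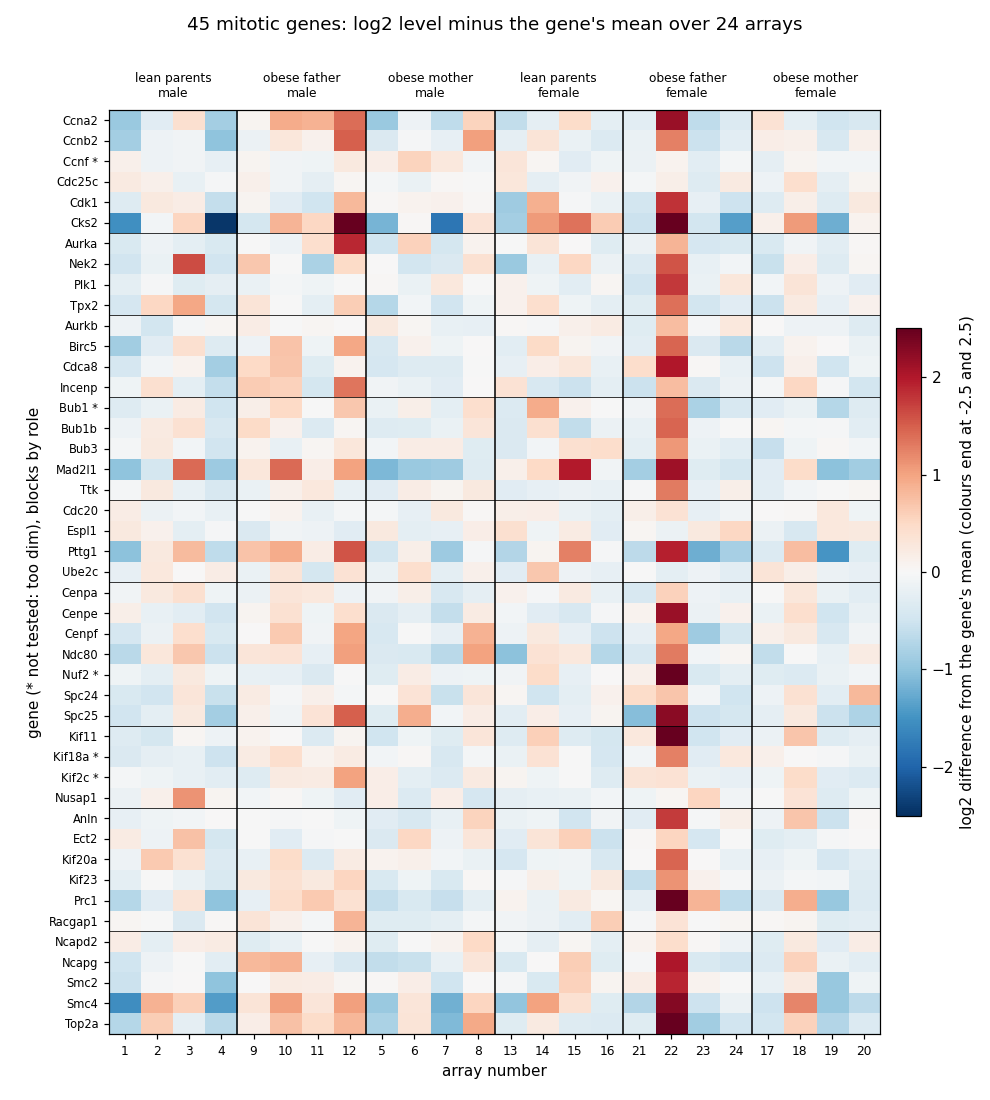
Log2 level minus the gene's own mean over the 24 arrays (colour) for the 45 measured genes (rows, in blocks by role, an asterisk marks the 5 genes too dim to test) on each array (columns, by group). The column of array 22 is red for most genes, with Nusap1, Ube2c and Espl1 among the pale exceptions, and array 4 is mostly blue.

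Because the genes moved together, their promoters were searched for the letters of the elements known for G2 and M phase transcription. RefSeq promoters (build GRCm38.p6, 250 bases before to 50 after each start) were found for 38 of the 46 genes, in 41 entries. Aurkb, Ccna2, Cdc25c, Incenp, Kif20a, Smc4, Spc24 and Tpx2 had no entry. The motifs, sought on both strands, were TTTGAA and TTCGAA (cell cycle homology region), CCAAT, and TTTGGCGC and TTTCGCGC (E2F). None of the 5 is contained in another. The 150 bases before the start are shown for 7 genes, chosen to show 3 genes among those with the smallest p in the comparison of obese-father males (Ccnb2, Cks2 and Aurka), 3 with CCAAT and TTTGAA inside this stretch (Cdk1, Cdc20 and Kif11) and 1 with neither (Nusap1). Ccnb2 and Aurka also hold both elements in their entries, with TTTGAA outside the stretch shown. Capitals mark the motifs, with ATTGG as CCAAT and TTCAAA as TTTGAA on the opposite strand.
Ccnb2, chr9:70421555-70421704, minus strand: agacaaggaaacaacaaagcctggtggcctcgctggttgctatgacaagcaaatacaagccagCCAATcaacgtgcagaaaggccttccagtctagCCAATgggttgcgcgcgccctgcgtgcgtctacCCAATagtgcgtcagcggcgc
Cdk1, chr10:69352913-69353062, minus strand: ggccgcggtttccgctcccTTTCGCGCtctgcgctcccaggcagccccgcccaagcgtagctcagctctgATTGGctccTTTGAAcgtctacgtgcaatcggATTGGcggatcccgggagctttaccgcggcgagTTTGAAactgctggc
Cks2, chr13:51645082-51645231, plus strand: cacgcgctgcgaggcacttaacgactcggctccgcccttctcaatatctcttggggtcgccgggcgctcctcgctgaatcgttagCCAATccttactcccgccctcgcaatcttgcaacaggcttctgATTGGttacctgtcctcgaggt
Aurka, chr2:172370571-172370720, minus strand: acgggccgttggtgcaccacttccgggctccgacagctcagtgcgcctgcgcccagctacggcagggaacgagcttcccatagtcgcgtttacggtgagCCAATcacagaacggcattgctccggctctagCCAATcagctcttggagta
Cdc20, chr4:118437344-118437493, minus strand: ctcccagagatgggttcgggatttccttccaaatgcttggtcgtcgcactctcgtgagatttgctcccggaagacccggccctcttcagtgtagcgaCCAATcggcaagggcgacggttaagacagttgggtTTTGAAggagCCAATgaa
Kif11, chr19:37376232-37376381, plus strand: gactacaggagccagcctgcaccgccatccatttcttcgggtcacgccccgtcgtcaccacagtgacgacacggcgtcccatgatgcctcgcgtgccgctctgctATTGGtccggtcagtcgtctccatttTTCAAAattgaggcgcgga
Nusap1, chr2:119618148-119618297, plus strand: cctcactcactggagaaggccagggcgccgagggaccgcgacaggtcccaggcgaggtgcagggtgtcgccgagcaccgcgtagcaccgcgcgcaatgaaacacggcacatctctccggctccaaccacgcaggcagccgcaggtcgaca

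Ccnb2 showed 3 CCAAT boxes starting at -87, -54 and -21 from the gene's start, and its entry holds TTTGAA at -167 and 5. Aurka had CCAAT at -51 and -19 and TTTGAA at 33. Cdk1 held an E2F form at -131, CCAAT at -80 and -48, and TTTGAA at -71 and -15. In Cdc20 the letters TTTGAA at -18 lay between CCAAT at -53 and -8, and in Kif11 CCAAT at -45 preceded TTTGAA at -19. Cks2 had CCAAT at -65 and -22 in this stretch and no TTTGAA anywhere in its entry, and Nusap1 had none of the 5 motifs. TTTGAA was found in 30 of the 41 entries (73.2%), against 17.9% of all 32851 entries and 12.6% of the entries of tested genes. CCAAT was found in 32 (78%, against 37.4% of all entries), at 2 or more places in 21 (51.2%, against 11.7%), and together with TTTGAA in 27 (65.9%, against 6.95%). TTCGAA was in 3 entries (7.32%, against 1.56%), TTTGGCGC in 2 (4.88%, against 0.514%) and TTTCGCGC in 1 (2.44%, against 0.323%). A match describes letters in the sequence and is no evidence of binding. The tested genes with both elements (23) had a median slope on the signal spread of 0.23 per 0.1, and those with 1 or neither (9) of 0.36.

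The comparison of male embryos of obese fathers with male embryos of lean parents asks whether the father's diet is reflected in his sons' transcriptome. The 40 genes had a median difference of 0.36 (log2, obese-father minus lean-parent here and below), with 31 of 40 above 0, against a median of -0.11 and 33.3% above 0 over all tested genes. With the signal spread as a covariate the direction of the median turned, to -0.13 with 9 of 40 above 0, and the median of all tested genes was -0.02. When array 22, a female pool, was also left out, the median of the 40 was 0.02, so the turn below 0 depended on that array. Lean-parent males had a signal spread of 1.38 ± 0.12 and obese-father males of 1.56 ± 0.11 (exact two-sided permutation p = 0.114 over 4 and 4 arrays, where 0.0286 is the smallest possible). After quantile normalization the median was 0.32, with 33 of 40 above 0.

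No gene of the 40 passed limma's adjusted test in males, in which 0.00751% of all tested genes passed. With the main axis of variation within groups (the residuals' first principal component) as a further term, which leaves the differences as they were, 9 of the 40 passed as higher: Ccna2, Ccnb2, Aurka, Kif23, Birc5, Spc25, Smc4, Pttg1 and Cks2, against 14.3% of all tested genes in either direction. This term is taken from the residuals of the same fit, so it lowers the residual variance by construction. Calls made with it, here and below, are no independent test. At an unadjusted p under 0.05, 6 of the 40 (Ccna2, Ccnb2, Kif23, Aurka, Cks2 and Incenp) were higher and 0 lower, against 4.3% of all tested genes higher and 10.4% lower. Fitted with the spread, 0 of the 40 were higher (2.49% of all tested genes) and 6 lower (4.69%): Tpx2, Kif20a, Cdk1, Ect2, Nek2 and Ncapd2, with adjusted p from 0.509 to 0.691. Quantile normalization gave 7 higher (4.55%) and 0 lower (10.7%). The count of 6 depended on single arrays. It was 0 without array 12 (1.72% of all tested genes higher) and 2 without array 1 or array 4 (2.32% and 2%). The median was 0.22 without array 12. With array 22, a female pool, left out together with array 12, the median was also 0.22, but 5 genes were higher. When only the 2 male groups of this comparison were fitted, 9 genes were higher (5.65%). The count thus also depended on which arrays outside the comparison entered the fit. In 2 genes, Aurka and Kif23, the 4 obese-father males all lay above the 4 lean-parent males, and in 0 genes below, against 1.91% and 6.63% of all tested genes. Cumulus and granulosa markers, RNA of maternal cells around the oocyte, averaged 2.92 (range over arrays 2.67 to 3.07) in obese-father and 3.28 (2.98 to 3.49) in lean-parent males. In the same groups the trophectoderm markers averaged 4.88 (4.64 to 5.25) and 4.63 (4.49 to 4.85), and the inner cell mass markers 4.37 (4.14 to 4.74) and 4.03 (3.57 to 4.38). Primitive endoderm markers averaged 3.36 (3.25 to 3.44) and 3.34 (3.09 to 3.51). Of the 6 cumulus and granulosa markers 5 were measured and 3 were above the median of all values on every array. The part of these cell types in the differences was not tested.

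**Figure D3:**
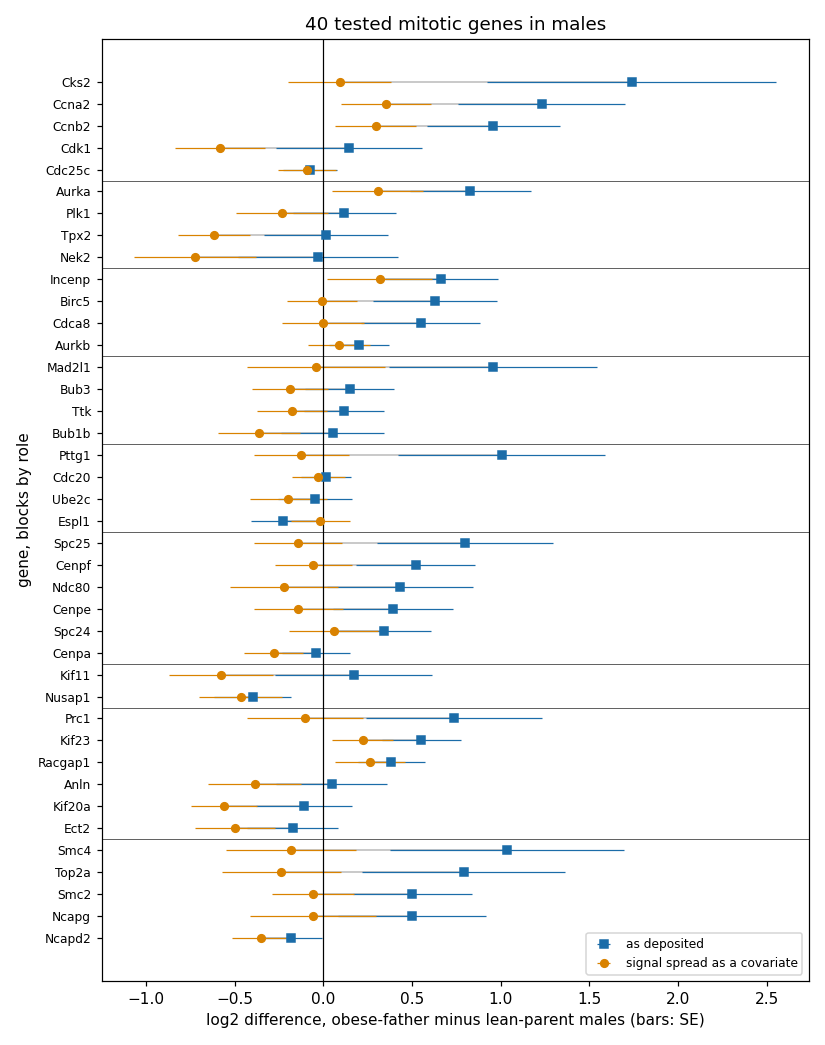
Log2 difference, obese-father minus lean-parent males (horizontal axis, bars are standard errors), for the 40 tested genes in blocks by role, from the deposited values (squares) and from the fit with signal spread as a further term (circles). The squares lie mostly right of 0 with a median of 0.36 and the circles mostly left of it with a median of -0.13.

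Cyclins and the control of Cdk1 showed the largest median difference of the roles, 0.96 with 4 of 5 tested genes above 0. With the spread as a covariate this median was 0.09, with 3 of 5 above 0. Ccna2, the cyclin of S phase and early mitosis, measured 3.49, 4.13, 4.82 and 3.55 in lean-parent males and 4.49, 5.34, 5.27 and 5.81 in obese-father males. The groups overlapped only in that array 3 exceeded array 9. The difference was 1.23 (2.35-fold, SE 0.47, adjusted p = 0.316), and 0.35 with the spread as a covariate. In obese-mother males Ccna2 measured 3.49, 4.28, 3.78 and 4.97. In females it was 3.80, 4.18, 4.87 and 4.17 with lean parents, 4.78, 4.17, 3.92 and 4.00 with an obese mother and 4.16, 6.57, 3.78 and 4.07 with an obese father, where array 22 had the highest value of all.

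Ccnb2, cyclin B2 and a partner of Cdk1, measured 4.25, 4.97, 5.01 and 4.09 in lean-parent males and 4.96, 5.39, 5.21 and 6.60 in obese-father males, a difference of 0.96 (1.94-fold, SE 0.37, adjusted p = 0.316). Arrays 2 and 3 exceeded array 9, and array 12 was the highest of all 24. Its level was 4.73, 5.07, 4.90 and 6.12 in obese-mother males. Lean-parent females measured 4.88, 5.41, 4.93 and 4.77, obese-mother females 5.26, 5.22, 4.70 and 5.22 and obese-father females 4.92, 6.35, 4.56 and 4.84.

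Cks2 had the largest difference of the 40, 1.74 (3.34-fold, SE 0.82, adjusted p = 0.334), from 3.64, 5.11, 5.73 and 2.75 in lean-parent and 4.74, 6.04, 5.71 and 7.69 in obese-father males. Lean-parent arrays 2 and 3 lay within the obese-father range, while arrays 1 and 4 were among the lowest of all. With the spread as a covariate the difference was 0.09, and -0.15 when array 22 was also left out. Its 3 probe sets gave 1.74, 1.85 and 1.47. Other groups measured 4.02, 5.21, 3.38 and 5.52 (obese-mother males), 4.34, 6.25, 6.54 and 5.82 (lean-parent females), 5.31, 6.24, 3.97 and 5.27 (obese-mother females) and 4.65, 7.92, 4.71 and 3.81 (obese-father females). Cdk1 itself differed by 0.14 (SE 0.41), and Cdc25c, the phosphatase that activates it, by -0.07 (SE 0.15).

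Cdc25c varied little: 2.75, 2.65, 2.32 and 2.49 in lean-parent, 2.48, 2.36, 2.55 and 2.51 in obese-mother and 2.64, 2.43, 2.29 and 2.56 in obese-father males. Female pools measured 2.81, 2.30, 2.43 and 2.62, 2.39, 2.93, 2.28 and 2.58 and 2.46, 2.67, 2.20 and 2.74 in the same order of parents. Its 24 values lay between 2.20 and 2.93, and only 9 arrays exceeded the median of all values (2.56). Little variation in so dim a gene does not show a stable level.

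Among the spindle pole kinases and their partners, the median difference was 0.07, with 3 of 4 above 0. It was -0.43 with 1 of 4 above 0 in the fit with the spread. Aurka, the Aurora kinase of centrosomes, measured 2.99, 3.24, 3.12 and 2.999 in lean-parent and 3.37, 3.25, 3.79 and 5.26 in obese-father males, a difference of 0.83 (SE 0.34, adjusted p = 0.316). The groups did not overlap, but array 9 and array 10 were close to the lean-parent values and array 12 was the highest of all 24. Without array 12 the difference was 0.38. Obese-mother males were at 2.87, 3.95, 2.93 and 3.47, and females at 3.37, 3.69, 3.38 and 3.08 (lean parents), 2.997, 3.27, 3.11 and 3.40 (obese mother) and 3.23, 4.22, 2.94 and 2.98 (obese father). Plk1 differed by 0.12, the centrosome kinase Nek2 by -0.03 and Tpx2, which activates Aurka on spindle microtubules, by 0.01.

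Tpx2 measured 2.60, 3.56, 3.99 and 2.59 in lean-parent and 3.35, 3.02, 2.78 and 3.65 in obese-father males. With the spread as a covariate its difference was -0.62 (adjusted p = 0.509). Nek2 and Cdk1 had -0.73 and -0.58 in that fit. In the remaining groups Tpx2 was 2.31, 2.96, 2.56 and 2.92 (obese-mother males), 3.14, 3.44, 2.93 and 2.78 (lean-parent females), 2.48, 3.26, 2.83 and 3.14 (obese-mother females) and 2.72, 4.41, 2.57 and 2.74 (obese-father females).

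All 4 genes of the chromosomal passenger complex, which corrects faulty chromosome attachments and then moves to the midzone, were above 0, with a median of 0.59. Fitted with the spread, 2 of the 4 were above 0, and the median of the complex was 0.04. Incenp, its scaffold, measured 2.50, 3.02, 2.37 and 2.01 in lean-parent and 3.25, 3.19, 2.18 and 3.95 in obese-father males (difference 0.66, SE 0.32, adjusted p = 0.338). Array 11 lay below 3 of the lean-parent pools, so the groups overlapped. Incenp was above the median of all values on only 9 arrays. Obese-mother males measured 2.53, 2.44, 2.33 and 2.62, and females 2.97, 2.22, 2.08 and 2.37 (lean parents), 2.56, 3.12, 2.58 and 2.14 (obese mother) and 2.08, 3.39, 2.26 and 2.47 (obese father). Birc5, or survivin, and Cdca8, or borealin, differed by 0.63 (SE 0.35) and 0.55 (SE 0.34).

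The catalytic subunit Aurkb differed by 0.20 (SE 0.17). It measured 2.85, 2.52, 2.91 and 3.03 in lean-parent, 3.21, 3.02, 2.78 and 2.76 in obese-mother and 3.15, 2.97, 3.02 and 2.97 in obese-father males. In females the values were 3.01, 2.93, 3.10 and 3.17, 2.97, 2.84, 2.84 and 2.66 and 2.67, 3.74, 2.94 and 3.23. Its slope on the spread was small and turned negative without array 22 (-0.05 per 0.1). The male groups overlapped throughout.

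The spindle checkpoint had a median of 0.13 with 4 of 4 tested genes above 0, but -0.18 with 0 of 4 above 0 in the fit with the spread. Mad2l1, which with Bub1b sequesters Cdc20, differed by 0.95 (SE 0.59), from 3.18, 3.75, 5.59 and 3.27 in lean-parent and 4.47, 5.59, 4.35 and 5.19 in obese-father males. Array 3 equalled the highest obese-father pool, array 10, to 2 decimals, and the other 3 lean-parent pools lay below all 4. The kinase Ttk, which starts checkpoint signalling, and Bub1b and Bub3 differed by 0.12, 0.05 and 0.15. Among genes of anaphase onset the median was -0.02, with 2 of 4 above 0, and -0.08 with 0 of 4 above 0 in the fit with the spread. Pttg1, the securin, differed by 1.01 (SE 0.58), from 4.35, 5.63, 6.18 and 4.74 to 6.10, 6.31, 5.56 and 6.95.

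Separase, Espl1, which cleaves cohesin once securin is gone, differed by -0.23 (SE 0.18). It measured 2.95, 2.81, 2.46 and 2.67 in lean-parent, 2.95, 2.46, 2.51 and 2.87 in obese-mother and 2.35, 2.62, 2.57 and 2.43 in obese-father males, with overlap. Cdc20 differed by 0.01 and the ubiquitin-conjugating enzyme Ube2c, a partner of the anaphase-promoting complex, by -0.05. Cdc20 measured 4.99, 4.66, 4.74 and 4.61 in lean-parent, 4.76, 4.60, 5.04 and 4.84 in obese-mother and 4.80, 4.90, 4.61 and 4.75 in obese-father males. In females its values were 4.95, 4.97, 4.64 and 4.57, 4.82, 4.83, 5.07 and 4.70 and 4.94, 5.17, 4.59 and 4.72, so that all 24 lay within 4.57 to 5.17.

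Kinetochore genes had a median of 0.41, with 5 of 6 tested genes above 0. Spc25, Ndc80 and Spc24 belong to the complex that grips microtubules and differed by 0.80, 0.43 and 0.34. Cenpf and the motor Cenpe had 0.52 and 0.39, and Cenpa, the histone that marks centromeres, -0.04. None of these had an unadjusted p under 0.05. The bipolar spindle motor Kif11 differed by 0.17.

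Nusap1, which bundles spindle microtubules, was the gene farthest below 0, at -0.40 (SE 0.22, adjusted p = 0.363). It measured 2.26, 2.54, 3.52 and 2.47 in lean-parent and 2.34, 2.44, 2.29 and 2.12 in obese-father males. The lean-parent value of array 3 stood far above the rest, and without it the difference was -0.12. Nusap1 was above the median of all values on only 5 arrays, and measured 2.56, 2.06, 2.57 and 1.99 in obese-mother males. Females were at 2.19, 2.22, 2.24 and 2.34 (lean parents), 2.40, 2.75, 2.08 and 2.31 (obese mother) and 2.31, 2.46, 2.95 and 2.32 (obese father).

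Midzone and cytokinesis genes had a median of 0.21, with 4 of 6 above 0. Kif23, the motor of the centralspindlin complex, measured 3.04, 3.28, 3.14 and 2.91 in lean-parent and 3.54, 3.67, 3.53 and 3.84 in obese-father males. These groups did not overlap, and the 4 obese-father pools were close to each other (difference 0.55, 1.47-fold, SE 0.22, adjusted p = 0.316). It was 0.22 with the spread as a covariate. Kif23 measured 2.91, 3.19, 2.91 and 3.32 in obese-mother males, 3.27, 3.44, 3.18 and 3.54 in lean-parent females, 3.15, 3.25, 3.22 and 2.96 in obese-mother females and 2.70, 4.41, 3.40 and 3.26 in obese-father females.

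Racgap1, the other centralspindlin subunit, measured 2.72, 2.65, 2.31 and 2.69 in lean-parent and 2.98, 2.78, 2.62 and 3.52 in obese-father males (difference 0.38, SE 0.19, adjusted p = 0.344). Array 11 lay inside the lean-parent range, and array 12 was the highest of all 24. Obese-mother males measured 2.36, 2.37, 2.42 and 2.61. In females it was 2.57, 2.51, 2.40 and 3.28, 2.69, 2.72, 2.35 and 2.39 and 2.64, 3.01, 2.66 and 2.71 for lean parents, obese mother and obese father. Prc1, which cross-links midzone microtubules, had 0.74, Anln 0.05, the motor Kif20a -0.11 and Ect2, which activates RhoA for the contractile ring, -0.17.

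Condensation factors had a median of 0.50, with 4 of 5 above 0. Smc4 measured 2.16, 4.59, 4.31 and 2.32 in lean-parent and 4.03, 4.74, 4.02 and 4.73 in obese-father males (difference 1.03, SE 0.66). Arrays 1 and 4 were the lowest of all 24 for this gene, and arrays 2 and 3 lay within the obese-father range. Top2a measured 3.40, 4.73, 3.89 and 3.44 and 4.27, 4.84, 4.57 and 4.94 in the same groups (difference 0.79, SE 0.57), and its second, dim probe set gave -0.02. Smc2 differed by 0.50, Ncapg by 0.50 and Ncapd2 by -0.18. Genes with a steep slope on the signal spread had the larger differences: across the 40 genes, which share the same 24 arrays, Pearson's r between slope and difference was 0.80, against 0.82 across all tested genes.

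**Figure D4:**
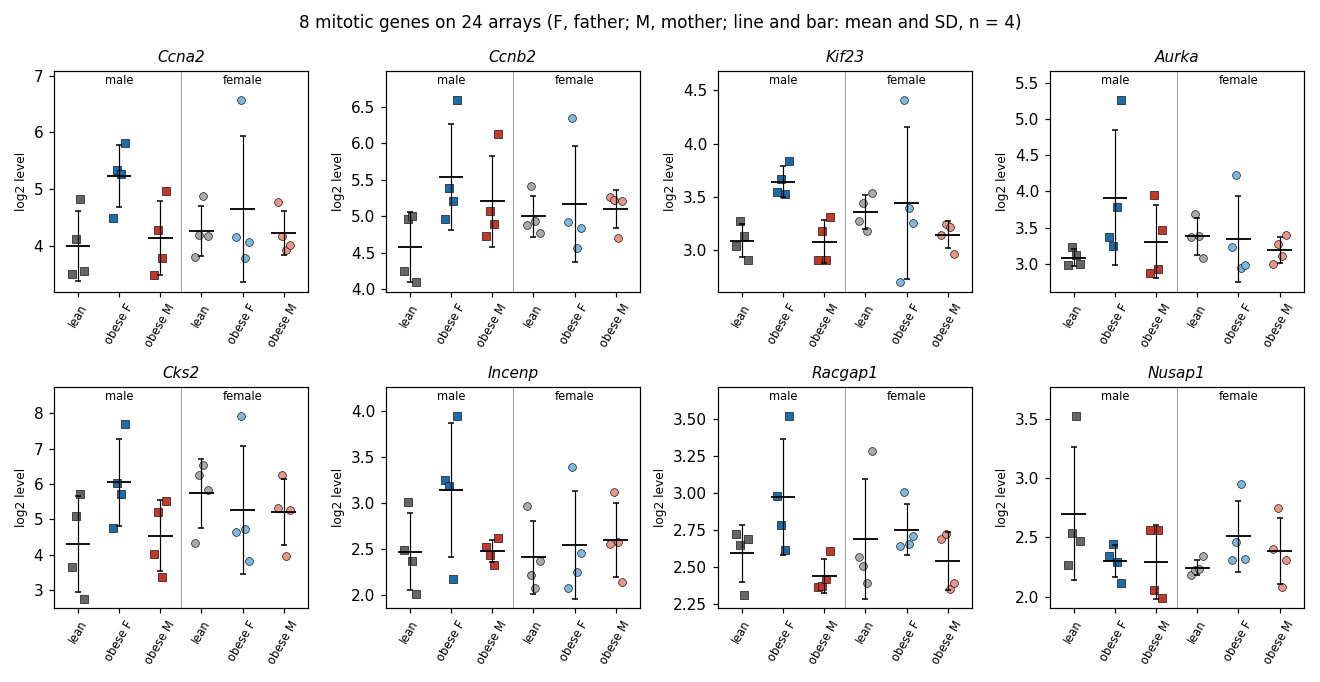
Log2 level on each of the 24 arrays (points), with group mean and SD (line and bar, n = 4), for the 8 genes with the smallest unadjusted p in obese-father against lean-parent males. Aurka and Kif23 are the 2 whose male lean-parent and obese-father points do not overlap, and array 22 is the isolated high point among obese-father females for most panels.

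Female embryos of obese fathers had a median difference of 0.19 from lean-parent females, with 32 of 40 genes above 0 (median 0.02 and 54.9% above 0 over all tested genes). No gene passed the adjusted test, which 0% of all tested genes passed. At an unadjusted p under 0.05, 3 genes were higher (1.95% of all tested genes) and 0 lower (0.886%). The signal spread of these groups was 1.47 ± 0.23 and 1.46 ± 0.08 (exact two-sided permutation p = 0.971). Array 22 decided this comparison: without it the median was -0.13 with 12 of 40 above 0, and 0 genes were higher (4.31% of all tested genes) and 2 lower (1.68%). After quantile normalization 0 genes had an unadjusted p under 0.05 (1.78% of all tested genes higher, 1.15% lower), and the median was 0.08. Leaving out array 13, 14 or 16 gave 1 higher gene (1.99%, 1.67% and 1.54% of all tested genes), and leaving out array 21, 23 or 24 gave 5 (2.94%, 2.84% and 2.83%). The median was 0.16 in the fit with the spread, with 8 genes higher (4.92%) and 0 lower (2.18%), but 1 higher (2.34%) when array 22 was also left out.

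The 3 genes were Ttk, Cenpe and Kif20a. Ttk measured 2.14, 2.22, 2.29 and 2.24 in lean-parent and 2.40, 3.74, 2.23 and 2.57 in obese-father females (difference 0.51, SE 0.23, adjusted p = 1). Only array 22 exceeded 2.57, and without it the difference was 0.18 (adjusted p = 0.815). Ttk was above the median of all values on only 7 arrays. In obese-mother females it was 2.17, 2.37, 2.42 and 2.47. In males it was 2.37, 2.67, 2.24 and 2.02 (lean parents), 2.14, 2.61, 2.50 and 2.67 (obese mother) and 2.27, 2.56, 2.69 and 2.25 (obese father).

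Cenpe, the kinesin that moves chromosomes to the spindle equator, measured 3.31, 3.09, 2.97 and 3.33 in lean-parent and 3.45, 5.52, 3.23 and 3.47 in obese-father females (difference 0.74, SE 0.34, adjusted p = 1). Without array 22 it was 0.21 (adjusted p = 0.83). Obese-mother females were at 3.20, 3.78, 2.87 and 3.18, and males at 3.51, 3.18, 3.10 and 2.89, 2.9999, 3.15, 2.78 and 3.57 and 3.44, 3.75, 3.27 and 3.78 for lean parents, obese mother and obese father. Here the high pool was again array 22 alone.

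Kif20a, which carries the passenger complex to the midzone, measured 2.66, 2.97, 2.99 and 2.68 in lean-parent and 3.08, 4.53, 3.09 and 2.89 in obese-father females (difference 0.57, SE 0.27, adjusted p = 1). Without array 22 it was 0.20 (adjusted p = 0.839). Obese-mother females were at 2.87, 2.97, 2.66 and 2.81, and males at 2.95, 3.73, 3.46 and 2.74, 3.17, 3.19, 3.001 and 2.91 and 2.89, 3.54, 2.73 and 3.28 for lean parents, obese mother and obese father. The 2 genes lower without array 22 were Mad2l1 (-1.16, adjusted p = 0.789) and Pttg1 (-1.04, adjusted p = 0.789).

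Embryos of obese mothers had median differences near 0 from those of lean parents, which are the same arrays as in the comparisons above. In males the median difference (obese-mother minus lean-parent) was 0.01 with 21 of 40 above 0, and in females -0.04 with 18 of 40 above 0, against -0.01 and 0.05 over all tested genes. No gene passed limma's adjusted test in either sex (0% of all tested genes in both). None had an unadjusted p under 0.05 either, where 0.601% of all tested genes were higher and 1.1% lower in males, and 1.65% and 0.541% in females. With the spread as a covariate 0 genes were higher and 3 lower in males (2.47% and 2.45% of all tested genes), and the medians were -0.11 and 0.13. In no gene did the 4 arrays of one group all lie above or below those of the other, which in males was the case for 0.548% of all tested genes (obese mother higher) and 0.856% (lower), and in females for 1.89% and 0.639%.

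The smallest p in males belonged to Nusap1 (-0.40, SE 0.22, adjusted p = 1), Ccnb2 (0.63, SE 0.37, adjusted p = 1) and Tpx2 (-0.50, SE 0.35, adjusted p = 1). Without array 3, the high lean-parent pool for Nusap1, the difference of that gene was -0.13. For Tpx2 the fit with the spread as a covariate gave -0.69 (adjusted p = 0.968). In females the smallest p belonged to Mad2l1 (-1.06, SE 0.59, adjusted p = 0.999), Spc24 (0.35, SE 0.27, adjusted p = 0.999) and Aurkb (-0.22, SE 0.17, adjusted p = 0.999).

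Mad2l1 measured 4.30, 4.69, 6.17 and 4.09 in lean-parent and 3.89, 4.64, 3.16 and 3.30 in obese-mother females, with array 15 far above the other lean-parent pools. It was 3.34, 6.29, 3.87 and 3.74 in obese-father females and 3.07, 3.26, 3.29 and 3.86 in obese-mother males. Spc24 measured 3.84, 3.30, 3.56 and 3.90 in lean-parent, 3.68, 4.18, 3.53 and 4.61 in obese-mother and 4.25, 4.48, 3.73 and 3.30 in obese-father females, and the groups overlapped. In males Spc24 was 3.41, 3.31, 4.10 and 3.24, 3.79, 4.13, 3.24 and 4.10 and 4.00, 3.77, 3.92 and 3.74 for the same parents.

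Obese-mother and obese-father embryos were also set against each other. In males the median (obese-mother minus obese-father) was -0.25 with 8 of 40 genes above 0, against 0.09 and 65.1% above 0 over all tested genes. No gene passed the adjusted test (0.00751% of all tested genes did), and at an unadjusted p under 0.05, 4 genes (Ccna2, Mad2l1, Kif23 and Racgap1) were lower (2.08% of all tested genes) and 0 higher (6.27%). That count was 1 without array 12 (0.886%) and 2 without array 5 or array 7 (1.4% and 1.28%). With the residuals' first principal component as a further term, Ccna2, Mad2l1, Kif23, Pttg1 and Cks2 passed the adjusted test as lower (5 of 40, against 4.52% of all tested genes in either direction). The median was 0.03 with the spread as a covariate, with 1 gene higher (3.48%) and 2 lower (2.17%). In 5 genes all 4 obese-mother males lay below all 4 obese-father males, against 1.28% of all tested genes: Mad2l1, Kif23, Prc1, Racgap1 and Pttg1. In 0 genes they lay above (5.57%).

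Racgap1 differed by -0.53 (SE 0.19, adjusted p = 0.573) and Mad2l1 by -1.53 (SE 0.59, adjusted p = 0.573). With the spread as a covariate these were -0.45 and -0.84. The highest obese-mother male reached 2.61 for Racgap1, just under array 11, and 3.86 for Mad2l1, well under array 11.

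In females the median was -0.29 with 5 of 40 above 0 (0.03 and 55.5% over all tested genes), and 0.09 without array 22. No gene passed the adjusted test (0% of all tested genes). At an unadjusted p under 0.05, 3 genes (Cdca8, Smc2 and Kif20a) were lower (1.28%) and 0 higher (1.97%), but 0 were lower without array 22 or array 19 (1.56% and 1.22% of all tested genes), and 1 without array 17 (1.02%). The count rose to 8 without array 21 (2.37%) and to 5 without array 23 or array 24 (2.64% and 2.7%). The fit with the spread gave a median of -0.10, with 1 higher (2.15%) and 3 lower (2.38%), and a median of 0.03 when array 22 was also left out. Cdca8 measured 2.14, 2.78, 2.17 and 2.55 in obese-mother and 3.09, 4.66, 2.68 and 2.47 in obese-father females (difference -0.82, SE 0.34, adjusted p = 0.975). Smc2, a condensin core subunit, measured 3.54, 3.95, 2.79 and 3.61 and 3.92, 5.62, 3.82 and 3.70 (difference -0.79, SE 0.34, adjusted p = 0.975). In both genes array 22 was the highest of the 24 arrays. Lean-parent females were at 2.46, 2.83, 2.95 and 2.48 for Cdca8 and 3.69, 3.34, 4.31 and 3.79 for Smc2.

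Male pools of Cdca8 were at 2.25, 2.59, 2.75 and 1.81 (lean parents), 2.24, 2.33, 2.33 and 2.64 (obese mother) and 3.16, 3.34, 2.35 and 2.74 (obese father). For Smc2 they were at 3.19, 3.69, 3.74 and 2.72, 3.75, 3.89, 3.22 and 3.74 and 3.73, 3.93, 3.91 and 3.77. The 4 obese-father males were the tightest group for Smc2.

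Male and female embryos of the same parents were compared for each kind of parentage. The median difference (male minus female) was -0.08 with lean parents, -0.05 with an obese father and -0.02 with an obese mother, against 0.06, -0.07 and -0.01 over all tested genes. No gene passed limma's adjusted test in any of the 3 (0%, 0.00751% and 0% of all tested genes). At an unadjusted p under 0.05, 1 gene, Nusap1, was higher in lean-parent males (2.52% of all tested genes) and 0 lower (0.849%). With an obese father 0 genes were higher (1.47%) and 0 lower (3.94%), and with an obese mother 0 were higher (0.706%) and 0 lower (0.706%). Without array 22 the obese-father median was 0.30, with 12 genes higher (7.05%) and 1 lower (15.8%). With the spread as a covariate it went the other way, to -0.22 with 29 of 40 below 0, 0 higher (3.11%) and 10 lower (6.93%), and when array 22 was also left out it was -0.04 with 0 higher (2.52%) and 0 lower (2.3%). In the fit with the spread the lean-parent median turned to 0.17, with 3 genes higher (3.59%) and 1 lower (2.28%).

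With lean parents, Nusap1 differed by 0.45 (SE 0.22, adjusted p = 0.992), where array 3 was the high male pool, and by 0.18 without it. No gene was higher without array 3, 13, 14, 15 or 16 (1.41% to 4.42% of all tested genes). Cks2 differed by -1.43 (adjusted p = 0.992), and was the 1 gene to pass the adjusted test with the residuals' first principal component as a further term (adjusted p = 0.0312, against 0.0826% of all tested genes). Mad2l1 differed by -0.86 (adjusted p = 0.992). With an obese father, the smallest p belonged to Espl1 (-0.38, adjusted p = 0.843), Incenp (0.59, adjusted p = 0.843) and Pttg1 (1.04, adjusted p = 0.843). Espl1 measured 2.75, 2.56, 2.95 and 3.22 in obese-father females, 3.12, 2.61, 2.92 and 2.42 in lean-parent females and 2.56, 2.31, 2.98 and 2.94 in obese-mother females. Among obese-father females, array 22 was the lowest for this gene, the reverse of most of the 40.

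Pttg1 measured 4.72, 7.32, 4.17 and 4.55 in obese-father, 4.65, 5.44, 6.64 and 5.34 in lean-parent and 5.04, 6.15, 3.91 and 5.07 in obese-mother females. In obese-mother males it measured 4.91, 5.52, 4.48 and 5.36. With an obese mother, Spc25, Ect2 and Kif20a had the smallest p between the sexes, with differences of 0.50 (adjusted p = 1), 0.23 (adjusted p = 1) and 0.24 (adjusted p = 1). Male and female pools overlapped in each of these genes. For Kif20a the difference was larger than the SD between pools, 0.14 in males and 0.13 in females.

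Spc25 measured 2.73, 3.94, 2.96 and 3.22 in males and 2.81, 3.29, 2.49 and 2.26 in females of obese mothers. It was 2.55, 2.79, 3.28 and 2.19 in lean-parent and 3.16, 2.96, 3.37 and 4.52 in obese-father males, and 2.77, 3.21, 2.83 and 3.10 and 1.97, 5.29, 2.52 and 2.59 in the females of the same parents. Array 21 had its lowest value and array 22 its highest. Ect2 measured 2.50, 3.37, 2.74 and 3.17 in males and 2.56, 2.61, 2.83 and 2.88 in females of obese mothers. It was 3.07, 2.73, 3.59 and 2.43 and 2.85, 2.57, 2.84 and 2.86 in lean-parent and obese-father males, and 2.57, 3.18, 3.45 and 2.32 and 2.89, 3.40, 2.43 and 2.85 in the females. Obese-father males were the tightest group for Ect2, within 2.57 and 2.86.

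The remaining values of Smc4 were 2.79, 4.00, 2.52 and 4.25 in obese-mother males and, in females, 2.72, 4.71, 4.08 and 3.41 (lean parents), 3.19, 4.92, 2.76 and 3.05 (obese mother) and 2.99, 5.99, 3.18 and 3.57 (obese father). Those of Top2a were 3.31, 4.44, 3.002 and 5.06, 3.80, 4.33, 3.79 and 3.77, 3.64, 4.68, 3.38 and 3.76 and 3.82, 6.88, 3.24 and 3.63 in the same order. Both genes peaked on array 22.

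The difference between the sexes in the effect of an obese father (male difference minus female difference) had a median of 0.03, with 23 of 40 above 0, against -0.14 over all tested genes. No gene passed the adjusted test (0% of all tested genes), and at an unadjusted p under 0.05, 0 were higher (1.86%) and 1, Nusap1, lower (5.68%; -0.66, SE 0.31, adjusted p = 0.654). Without array 3, the high lean-parent male pool for Nusap1, that gene had -0.39. Cks2 had 2.20 (SE 1.15, adjusted p = 0.654). Without array 22 the median was 0.41, with 11 genes higher (6.97%) and 1 lower (17%). Quantile normalization gave a median of 0.19, with 4 higher (2.68%) and 0 lower (6.13%). Array weights gave 0.34, with 11 higher (6.45%) and 0 lower (17.7%). The median was -0.28 with the spread as a covariate, with 0 higher (2.78%) and 11 lower (7.1%), the smallest adjusted p being 0.144 for Kif20a. When array 22 was also left out of that fit, the median was -0.03. With the residuals' first principal component as a further term, Cks2 and Pttg1 passed the adjusted test (2 of 40, against 2.63% of all tested genes). The corresponding difference for an obese mother had a median of 0.06, with 0 genes higher (0.819%), 0 lower (1.77%) and 0 adjusted calls (0%). That median turned to -0.26 in the fit with the spread, with 33 of 40 below 0, 0 higher (2.33%) and 1 lower (3.24%). Nusap1 (-0.54, adjusted p = 1) and Aurkb (0.34, adjusted p = 1) had the smallest p, and Nusap1 had -0.27 without array 3. On the deposited values, an effect of paternal obesity on these genes was thus not shown to differ between sons and daughters.

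Other genes of cell division, in lists that exclude the 46, were read in the comparison of obese-father with lean-parent males, where 4.3% of all tested genes were higher and 10.4% lower at an unadjusted p under 0.05. Anaphase-promoting complex genes had a median of 0.25 (9 of 15 tested genes above 0, 2 higher and 0 lower at that p), with Anapc13 at 2.40 (adjusted p = 0.316) and Anapc10 at 0.75 (adjusted p = 0.326). DNA replication genes had 0.20 (17 of 22 above 0, 2 higher and 1 lower), with the GINS subunit Gins1 at 2.24 (adjusted p = 0.316) and the origin recognition subunit Orc6 at 1.12 (adjusted p = 0.316). Cohesin genes had 0.26 (7 of 13 above 0, 1 higher and 1 lower), with the core subunit Smc3 at 1.65 (adjusted p = 0.321) and its regulator Pds5b at -0.42 (adjusted p = 0.316). Fitted with the spread, the medians of these 3 lists were -0.05, -0.24 and -0.25.

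Other kinetochore genes had a median of 0.01 (9 of 18 above 0, 2 higher and 0 lower), with Spdl1 at 0.75 and Ska1 at 0.67. Other spindle and motor genes had 0.10 (12 of 23 above 0, 2 higher and 3 lower), with the dynein regulator Nde1 at 0.53 (adjusted p = 0.316) and Ckap2l at -0.43. Nde1 kept its size with the spread as a covariate (0.58). Other mitotic kinases and phosphatases had 0.18 (10 of 14 above 0, 1 higher and 1 lower), with Cks1b, the close relative of Cks2, at 1.19 and Nek6 at -0.32. Other cytokinesis genes had 0.21 (6 of 11 above 0, 0 higher and 2 lower), with citron kinase, Cit, at -0.38 and Plk3 at -0.36.

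The remaining lists had medians from -0.13 to -0.002, beside -0.11 over all tested genes. Transcriptional regulators of mitotic genes had a median of -0.07 (7 of 18 above 0, 0 higher and 2 lower), with E2f1 at -0.34 and the pocket protein gene Rbl2 at -0.36. G1 regulators and brakes had -0.13 (5 of 11 above 0, 0 higher and 0 lower), with the inhibitors Cdkn1c at -0.25 and Cdkn2a at -0.28. Centrosome and centriole genes had -0.002 (3 of 7 above 0, 0 higher and 0 lower), with Cdk5rap2 at -0.26 and Cep152 at -0.34. The 3 tested genes among the other condensin and chromosome surface genes had a median of -0.01 (1 above 0, 0 higher and 1 lower), with Ncaph2 at -0.35 and Mki67, the proliferation antigen, at 0.21.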

How the data were processed

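The values are log2 expression levels deposited by the authors for 24 Affymetrix GeneChip arrays, for which the submitters' processing notes name RMA and affy. Versions, probe set definitions and build: not given in the sources used here. RMA corrects background and brings the arrays to one distribution, yet the deposited arrays differed in signal spread (SD of all log2 values). Of 35556 probe sets, 21789 have 1 symbol in the platform annotation, 1621 several and 12146 none. Only those with 1 symbol were used, and the set with the highest mean stood for its gene. Scanner files were not analysed here.

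Genes above the median of all values (2.56) on at least 4 arrays were tested with limma 3.58.1 in R 4.3.3 on 6 group means over all 24 arrays, with p-values adjusted by Benjamini-Hochberg over 13311 genes. The number of arrays, 4 a group, limits the precision. The code was tested on simulated data. Alternatives were the filter, the probe set rule, normalizations, weights, covariates (signal spread, first residual principal component) and leaving out arrays. Promoters came from RefSeq.

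The members and gene lists were chosen with earlier results of these data known. Values on every array are given for the 8 genes with the smallest p in obese-father against lean-parent males, the 3 with the smallest in each other comparison with lean parents and between sexes, the 2 with the smallest in each other comparison, and the 5 with the largest and the 5 with the smallest slope on the spread. Of each further list the 2 genes with the smallest p in the first comparison are named.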

Additional observations from a re-analysis of the deposited data

Results flagged for a closer look

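Each group of 4 arrays was searched for a highest or lowest value whose gap to its nearest neighbour, as a share of the group's range, exceeded Dixon's 95% critical value, for each of the 40 genes, their mean and the signal spread. Of 252 such checks 20 (7.94%) were met, where chance gives about 5% of independent checks. The 40 genes share the same arrays and moved together, so these checks are not independent. Of the 20, 11 were on array 22. On that array, an obese-father female pool, the isolated high values were the mean of the 40 genes at 4.78, the cyclin Ccna2 at 6.57, Cdk1 at 5.86, the checkpoint genes Bub1b at 4.40 and Bub3 at 4.04, the midzone motor Kif20a at 4.53, the kinetochore motor Cenpe at 5.52, the topoisomerase Top2a at 6.88, the spindle assembly factor Tpx2 at 4.41, the centrosome kinase Nek2 at 4.15 and the condensin subunit Smc2 at 5.62.

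Among lean-parent females, the spindle motor Kif11 at 3.29 and Top2a at 4.33 were isolated high values on array 14, and Anln at 2.29 an isolated low value on array 15. Among lean-parent males, Nek2 at 4.20 was isolated above the rest on array 3, and the condensin subunit Ncapd2 at 2.97 below the rest on array 2. Among obese-father males, the signal spread of 1.72 on array 12 was isolated above the rest, Ect2 at 2.57 on array 10 below it, and Anln at 2.65 on array 12 below it. Among obese-mother females, cyclin B2, Ccnb2, at 4.70 on array 19 was isolated below the rest.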

How the results depend on the processing

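Of 247 medians under alternatives, 244 lay within 0.38 of the reported median and 3 did not. The 0.38 is 1 pooled SD of the array medians of the 40 genes. It exceeds every reported median difference, so a median could reach 0 and still lie within it. Of the 247, 44 changed sign, most of them where the reported median was near 0. Of 270 counts of adjusted calls, 265 stayed within 1.5 times the reported count and 5 did not. In every comparison of groups the reported count was 0. With the signal spread as a covariate the obese-father against lean-parent male median went from 0.36 to -0.13, and to 0.02 when array 22 was also left out. With the first residual principal component, which by construction leaves group differences unchanged and removes residual variance, the genes called of 40 went from 0 to 9 in that comparison (14.3% of all tested genes), to 5 in obese-mother against obese-father males (4.52%), to 1 between sexes with lean parents (0.0826%) and to 2 in the obese-father effect by sex (2.63%). The 9 were Ccna2, Ccnb2, Aurka, Kif23, Birc5, Spc25, Smc4, Pttg1 and Cks2. The obese-mother against obese-father female median went from -0.29 to 0.0904 without the 2 widest arrays. Positive slopes called went from 33 to 21 without arrays 12 and 22 (10.4% of all tested genes). Leaving out 1 array gave medians from 0.22 to 0.42 in obese-father against lean-parent males, -0.13 to 0.31 in females, -0.43 to 0.0904 in obese-mother against obese-father females and -0.39 to -0.14 in males, with 0 adjusted calls. Higher genes in obese-father males at an unadjusted p under 0.05 were 6, but 11 with array weights (5.8% of all tested genes) and 17 with the principal component (9.62%). Array weights also turned the obese-father against lean-parent female median from 0.19 to -0.10 (0 higher, 6.9%, and 4 lower, 2.67%), the obese-mother against obese-father female median to 0.03, and the male minus female median with an obese father from -0.05 to 0.18 (11 higher, 5.58%). The median of the obese-father effect by sex went from 0.03 to 0.34 with array weights (11 higher, 6.45%, and 0 lower, 17.7%). Signs that turned with the spread as a covariate are given beside each comparison. Slopes that reversed were Aurkb (-0.057 and -0.052 per 0.1 of spread), Cdc20 (-0.052 and -0.044) and Cdc25c (-0.042 and -0.022) without arrays 12 and 22 and without array 22 alone. Cks2 in obese-father against lean-parent males was -0.15 with the spread as a covariate and without array 22. Where not given by construction, the cause was not tested. No paired analysis was possible because the labels do not give the mother or father of each pool. In obese-father against lean-parent males 1 gene of all tested passed the adjusted test, while the smallest adjusted p among the 40 was 0.316. That 1 gene does not show that differences of the size seen in the 40 could pass.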

Other observations

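Array 22 was also high for other cell division genes. It held the highest value of the 24 arrays for 12 of 22 tested DNA replication genes (54.5%), 7 of 13 cohesin genes (53.8%), 8 of 15 anaphase-promoting complex genes (53.3%) and 8 of 18 other kinetochore genes (44.4%), against 17.8% of all tested genes. Of the 18 transcriptional regulators of mitotic genes 3 were highest there (16.7%), and of the 7 centrosome and centriole genes 1 (14.3%). After quantile normalization the shares were 50% for DNA replication, 61.5% for cohesin, 26.7% for the anaphase-promoting complex and 33.3% for the other kinetochore genes, against 13.4% of all tested genes. Nuf2, the kinetochore partner of Ndc80 that was too dim to test, measured 4.64 on array 22 and at most 2.62 on every other array.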
